A study of Mus musculus with 12 samples.

Results

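The genes described are 10 heat shock proteins and co-chaperones, Hspa1a, Hspa1b, Hspa8, Hsph1, Dnajb1, Hsp90aa1, Bag3, Hspb1, Hspb8 and Cryab, named by symbol and each read from its probe set with the highest mean signal. A probe set carrying the symbol was found for 9 of the 10, out of 22206 probe sets on the array; Hspa8, the constitutive cytosolic HSP70, was not analysed here. Their transcripts were measured in 12 mouse neuroblastoma tumors, which arise from the sympathetic nervous lineage. The tumors formed after neuroblastoma cells were inoculated into A/J mice, an inbred strain. The groups were HIFU at 24 h, HIFU at 48 h, HIFU at 72 h and untreated control, with 3 tumors each, where HIFU is focused ultrasound used here to fractionate the tissue mechanically. The times are taken as the interval after HIFU, although the labels leave this unclear. Cell line, age of the mice and use of 1 or several animals per group are not given by the labels, so the p-values cover the spread among these tumors and part of that may be technical.

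Heat shock proteins keep other proteins folded. HSP70 binds exposed hydrophobic stretches and is driven through its ATP cycle by J-domain proteins such as Dnajb1 and by exchange factors such as Hsph1 and Bag3, HSP90 finishes the folding of kinases and receptors, and small heat shock proteins hold unfolding clients until HSP70 takes over. Protein damage releases the transcription factor HSF1, which binds heat shock elements, repeats of GAA in alternating orientation. The stress-inducible genes of the set respond to it in most cell types, while the small heat shock proteins Cryab (alpha-B-crystallin) and Hspb8 are also abundant in unstressed striated muscle. There, Hspb8 and Bag3 act together in the disposal of damaged filamin.

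RefSeq promoters (GRCm38.p6, 250 bases before to 50 after a start site) were matched for 7 of the 10 genes, with Cryab, Hsp90aa1 and Hspa8 not among them. They are shown for the heat shock elements they hold, since the comparison below sets general heat shock genes against Cryab and Hspb8. The motifs searched on both strands were the 2-unit forms GAANNTTC and TTCNNGAA and the 3-unit forms GAANNTTCNNGAA and TTCNNGAANNTTC, which contain the 2-unit forms. A 2-unit form was found for 6 of the 7 genes, against 15.1% of all 32851 promoters in the RefSeq table, and a 3-unit form only for Hsph1, against 0.603% of all promoters. Capitals mark the matches in the lines that follow, each written 5′ to 3′ on the gene's strand. Hsph1 has 2 overlapping promoters and both hold its matches; the one with the longer flank is shown.
Hspa1a, chr17:34972241-34972272, minus strand: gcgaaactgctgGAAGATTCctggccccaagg
Hspa1b, chr17:34959323-34959354, minus strand: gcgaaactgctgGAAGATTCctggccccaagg
Hsph1, chr5:149636276-149636381, minus strand: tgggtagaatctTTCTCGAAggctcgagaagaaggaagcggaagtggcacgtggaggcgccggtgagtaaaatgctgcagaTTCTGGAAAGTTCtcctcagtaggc
Hspb1, chr5:135887790-135887841, plus strand: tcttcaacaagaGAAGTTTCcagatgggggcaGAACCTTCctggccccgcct
Hspb8, chr5:116422843-116422874, minus strand: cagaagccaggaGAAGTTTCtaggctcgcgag
Bag3, chr7:128523613-128523632, plus strand: tggatgggaccaGAAGTTTC

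The stretches of Hspa1a and Hspa1b were identical, and the 2 whole promoters shared 296 of 300 bases (98.67%). The match in both began 104 bases before the start site. Hspb1 held 2 matches, beginning 117 and 97 bases before the start, whereas those of Hspb8 and Bag3 began at bases 3 and 43 after it. In Hsph1 the 2-unit match began 54 bases before the start and the 3-unit match at base 16 after it. Neither of the 2 Dnajb1 promoters held these letters. A match describes the sequence and does not show that a factor binds there.

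The values are log2 signals as deposited, so a difference of 1 is a 2-fold change, provided that the base is 2. The base was read from the range of the values. Differences were tested with limma (lmFit and eBayes) across all probe sets, with Benjamini-Hochberg adjustment and a threshold of 0.05. Of the 9 genes, 0 passed at 24 h, against 0.054% of all probe sets, 0 at 48 h, against 0.0045%, and 0 at 72 h, against 0.00901%. Of the same 9 genes, 0 passed over all HIFU tumors against controls (0.018% of all probe sets), 0 by the moderated F test over the 3 times (0.00901%) and 0 between any pair of times (0% of all probe sets at each of the 3 pairs). At an unadjusted p under 0.05, limma gave 4 of the 9 genes at 24 h (9.84% of all probe sets), 2 at 48 h (13.3%), 1 at 72 h (11.2%) and 3 over all HIFU tumors (14.6%), and the F test gave 2 (9.34%). The genes are therefore described by their values. Their median difference was 0.83 at 24 h, 0.32 at 48 h and 0.02 at 72 h, where the median over all probe sets was 0, 0.01 and -0.06.

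The tumors differed in skeletal muscle transcripts. The muscle level of an array, taken as the median over 18 muscle genes of the signal minus its control mean, lay between 2.02 and 5.10 in HIFU 24 h tumors, 2.76 and 4.08 at 48 h, 2.20 and 5.44 at 72 h, and -1.31 and 2.06 in controls. All 18 genes were measured, and their summed signal ranged from 20.87 to 22.23 log2 units at 24 h, 21.11 to 21.75 at 48 h, 20.62 to 22.31 at 72 h and 16.93 to 20.61 in controls. Control replicate 3, at 2.06, overlapped the HIFU tumors through HIFU_24h replicate 2, at 2.02. Of 13 listed neuroblastoma and adrenergic markers 11 were measured, and their summed signal ranged from 17.16 to 18.74 log2 units at 24 h, 17.00 to 18.41 at 48 h, 15.73 to 18.60 at 72 h and 15.01 to 18.64 in controls. Of the 11 means, 6, 8 and 5 were above control at 24, 48 and 72 h, and 5, 3 and 6 below. Elavl4 differed by -0.51, -0.92 and -0.47, and its 24 and 48 h arrays lay below all controls (7.68% and 11.7% of all probe sets). Phox2a differed by -1.02, -1.35 and -0.96, Isl1 by 1.04, 1.41 and 0.35, and Stmn2 by 1.35, 1.31 and 0.85. The limma adjusted p of these 4 genes lay between 0.439 and 0.921. Chgb, a chromaffin granule protein, lay between 14.29 and 17.54 in HIFU tumors and between 13.45 and 17.63 in controls. Ddc, an enzyme of catecholamine synthesis, lay between 4.28 and 6.89 in HIFU tumors and between 5.12 and 6.53 in controls, and Mycn, a neuroblastoma oncogene, between 4.46 and 7.28 and between 5.48 and 7.24 in the same groups. The lowest of these signals of Ddc and Mycn were below the array medians in HIFU tumors (5.44 to 5.68), as was that of Ddc in controls (5.43 to 5.45), and presence above background was not analysed here. The level of 12 neutrophil genes, taken in the same way, lay between -0.03 and 2.36 at 24 h, 0.88 and 5.14 at 48 h, 5.44 and 9.23 at 72 h and -0.10 and 0.17 in controls. That of 8 of 9 listed macrophage genes lay between -1.38 and 1.30 at 24 h, -0.32 and 3.29 at 48 h, 0.70 and 4.11 at 72 h and -0.57 and 0.48 in controls. No probe set passed between any pair of times, and the part of the leukocytes in the values below was not tested.

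Cryab, which forms oligomers that keep desmin and other filament proteins from aggregating, was higher in every HIFU tumor than in every control (probe set TC0900000605.mm.2). It had 16.92, 13.05 and 14.81 log2 units at 24 h, 15.70, 16.52 and 14.34 at 48 h and 13.06, 16.41 and 13.39 at 72 h, against 11.35, 10.95 and 11.86 in controls. It was thus the 1 gene of the 9 whose 9 HIFU arrays did not overlap the controls from above, which held for 1.76% of all probe sets. The difference from control was 3.54 ± 1.02 SE at 24 h (11.6-fold, limma adjusted p = 0.317), 4.13 ± 1.02 SE at 48 h (17.5-fold, adjusted p = 0.202) and 2.90 ± 1.02 SE at 72 h (7.46-fold, adjusted p = 0.351). Without HIFU_72h replicate 2, the tumor highest in muscle genes, the 72 h difference was 1.84. In bulk tissue, more cells of a type and more RNA per cell cannot be told apart.

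Hspb8, a small heat shock protein that hands damaged clients to Bag3 for autophagy, had 14.25, 11.95 and 12.14 log2 units at 24 h, against 9.82, 10.76 and 11.84 in controls. The 3 arrays at 24 h lay above all controls, with a difference of 1.97 ± 0.67 SE (3.93-fold, limma adjusted p = 0.404). At 48 h it had 11.75, 12.86 and 11.74, a difference of 1.31 ± 0.67 SE (adjusted p = 0.424), and at 72 h 11.36, 12.84 and 11.89, a difference of 1.22 ± 0.67 SE (adjusted p = 0.527). At both times the arrays overlapped control replicate 3, the control richest in muscle genes. Its 24 h difference was 1.24 without HIFU_24h replicate 1, and its 48 and 72 h differences were 0.82 and 0.73 without control replicate 1.

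Hspb1 (HSP25 in mouse), which caps actin filaments and is induced by stress in many tissues, had the widest range of the set after HIFU. It had 11.71, 7.73 and 9.07 log2 units at 24 h, 9.17, 8.32 and 8.14 at 48 h and 5.68, 7.71 and 7.10 at 72 h, against 5.97, 4.43 and 5.62 in controls. The arrays at 24 and 48 h lay above all controls, and HIFU_72h replicate 1 lay within their range. The difference from control was 4.16 ± 0.86 SE at 24 h (17.9-fold, limma adjusted p = 0.171), 3.20 ± 0.86 SE at 48 h (9.21-fold, adjusted p = 0.222) and 1.49 ± 0.86 SE at 72 h (2.81-fold, adjusted p = 0.555). Its control mean of 5.34 was below the control array medians (5.43 to 5.45), and whether it was above background was not analysed here, so these folds depend on low control signals. Every array at 72 h was below every array at 24 and 48 h, with differences of -2.67 ± 0.86 SE from 24 h (adjusted p = 0.820) and -1.71 ± 0.86 SE from 48 h (adjusted p = 0.811).

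The arrays of 4 genes (Cryab, Hspb1, Hspb8 and Hspa1b) lay above all controls at 24 h, against 6.84% of all probe sets. The same held for 2 genes (Cryab and Hspb1) at 48 h, against 10.3%, and for 1 (Cryab) at 72 h, against 8.99%. No arrays of the 9 genes lay below all controls at 24 h (7.68% of all probe sets) or 48 h (11.7%), and those of 1, Dnajb1, did at 72 h (10.1%).

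**Figure D1:**
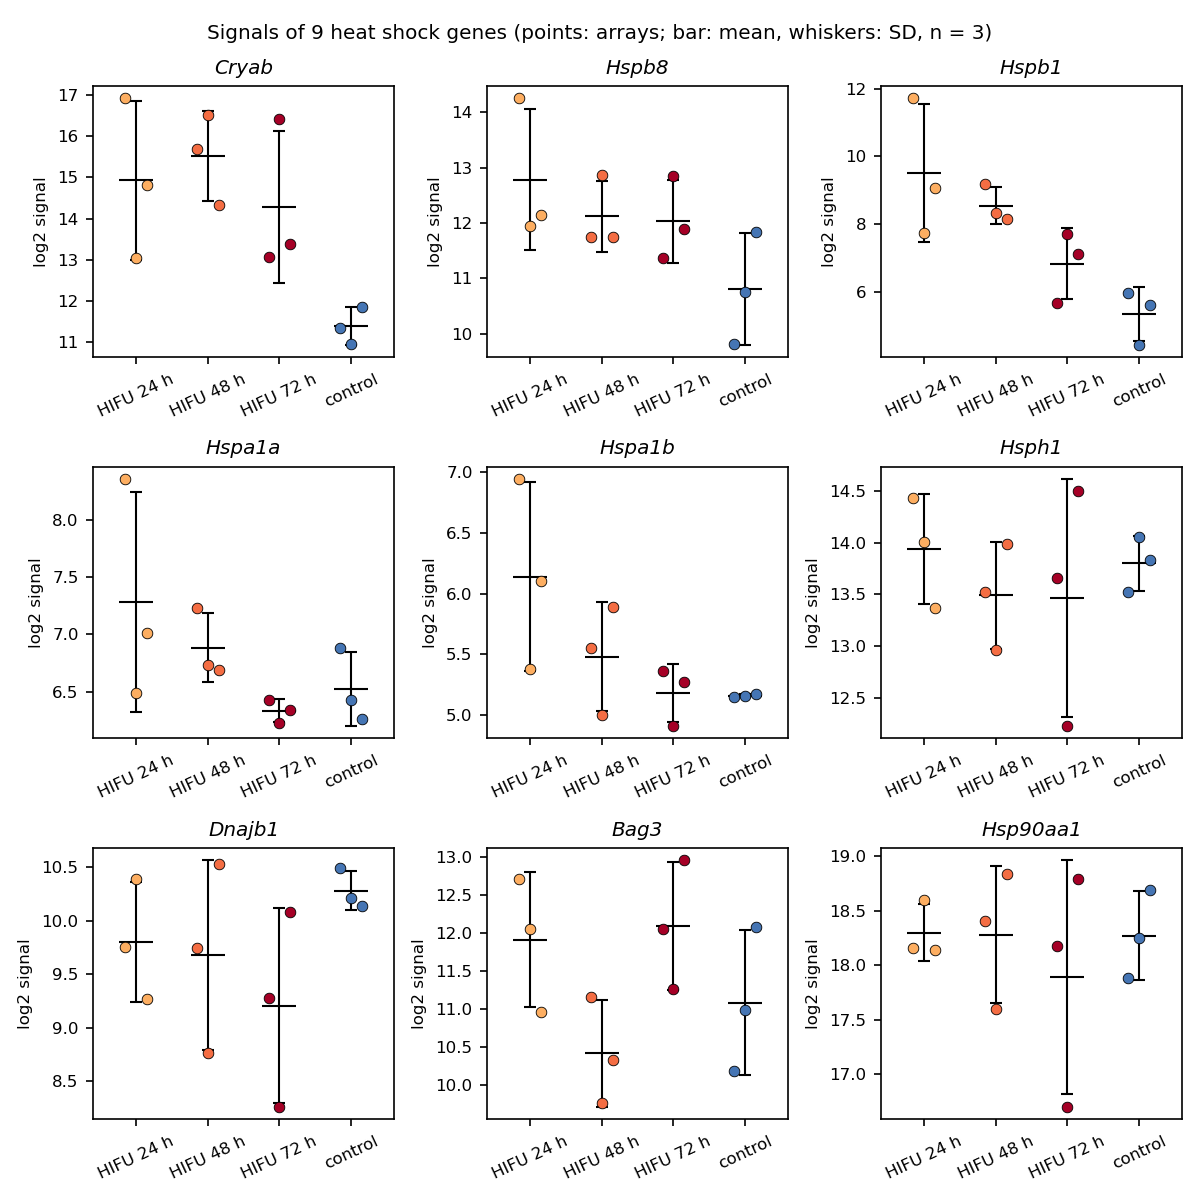
Log2 signal (vertical axes, each with its own range) of the 9 measured heat shock genes in HIFU tumors at 24, 48 and 72 h and in controls; points are arrays, bars are means and whiskers are SD (n = 3). Cryab had 13.05 to 16.92 in the 9 HIFU arrays and 10.95 to 11.86 in the controls, while Hsp90aa1 had 16.70 to 18.84 in HIFU arrays and 17.88 to 18.69 in controls.

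Hspa1a and Hspa1b encode the stress-inducible HSP70 and are near-identical neighbours, so a probe set for one may also bind transcripts of the other, and their values are uncertain as separate readings. Hspa1b had 6.94, 5.38 and 6.10 log2 units at 24 h, 5.55, 5.0 and 5.89 at 48 h and 5.36, 4.91 and 5.27 at 72 h, against 5.15, 5.16 and 5.17 in controls. Its control signals lay below the array medians of 5.43 to 5.45, and whether they were above background was not analysed here. The difference at 24 h was 0.98 ± 0.36 SE (1.97-fold, limma adjusted p = 0.429), and 0.58 without HIFU_24h replicate 1.

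Hspa1a had 8.35, 6.49 and 7.01 log2 units at 24 h, 7.23, 6.73 and 6.69 at 48 h and 6.43, 6.23 and 6.34 at 72 h, against 6.88, 6.43 and 6.26 in controls. At 24 h the difference was 0.76 ± 0.40 SE (1.69-fold, limma adjusted p = 0.575), and 0.23 without HIFU_24h replicate 1. That tumor had the highest signal of all 12 arrays for both genes and also for Cryab, Hspb8 and Hspb1, and its muscle level was 5.10. All 3 arrays at 72 h were below all 3 at 24 h for both genes, with differences of -0.95 ± 0.40 SE for Hspa1a (adjusted p = 0.866) and -0.96 ± 0.36 SE for Hspa1b (adjusted p = 0.843).

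Between times, limma gave an unadjusted p under 0.05 for 1 of the 9 genes at 48 against 24 h (Bag3; 3.89% of all probe sets), 1 at 72 against 48 h (Bag3; 6.26%) and 3 at 72 against 24 h (Hspa1a, Hspa1b and Hspb1; 5.57%). At 48 against 24 h no gene of the 9 had arrays above (3.43% of all probe sets) or below (3.7%) all those of the other time. At 72 against 48 h, 1 gene lay above (Bag3; 4.7%) and 2 below (Hspa1a and Hspb1; 6.73%). At 72 against 24 h, 0 lay above (4.53%) and 3 below (Hspa1a, Hspa1b and Hspb1; 4.9%).

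Hsp90aa1, the stress-responsive cytosolic HSP90, and Hsph1, an HSP110 that exchanges nucleotide on HSP70, overlapped the controls at every time. Hsp90aa1 averaged 18.30 ± 0.26 at 24 h, 18.28 ± 0.63 at 48 h and 17.89 ± 1.07 at 72 h, against 18.27 ± 0.41 in controls (log2 units, SD, n = 3 each). The difference at 24 h was 0.03, with an unadjusted 95% confidence interval of -1.04 to 1.09 (limma adjusted p = 0.994). With 3 arrays per group, and a spread estimated over all 12, that interval still held changes of about 1 log2 unit either way. Larger changes could also fail the adjusted test, as 4.16 ± 0.86 SE for Hspb1 at 24 h did. Hsph1 averaged 13.94 ± 0.53 at 24 h, 13.49 ± 0.52 at 48 h and 13.46 ± 1.15 at 72 h, against 13.80 ± 0.27 in controls, and its difference at 24 h had an interval of -0.97 to 1.24 (adjusted p = 0.948). The lowest signal of both genes, 16.70 and 12.23, was in HIFU_72h replicate 2. Without that tumor the 72 h differences were 0.21 for Hsp90aa1 and 0.28 for Hsph1, against -0.38 and -0.34 with it.

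Dnajb1, the J-domain partner that delivers clients to HSP70, was the 1 gene of the 9 with lower means than control at all 3 times. It had 9.75, 10.39 and 9.27 log2 units at 24 h, 9.74, 8.76 and 10.53 at 48 h and 9.28, 8.26 and 10.08 at 72 h, against 10.49, 10.21 and 10.14 in controls. The difference was -0.48 ± 0.51 SE at 24 h, -0.60 ± 0.51 SE at 48 h and -1.07 ± 0.51 SE at 72 h (limma adjusted p = 0.791, 0.631 and 0.460). Leaving out 1 array gave -0.77 (without HIFU_24h replicate 2) to -0.21 (without HIFU_24h replicate 3) at 24 h, and -1.03 (without HIFU_48h replicate 3) to -0.145 (without HIFU_48h replicate 2) at 48 h. At 72 h it gave -1.51 (without HIFU_72h replicate 3) to -0.60 (without HIFU_72h replicate 2). With the muscle level as a covariate the 24 and 48 h differences were 0.41 and 0.29. All 3 arrays at 72 h lay below the lowest control, HIFU_72h replicate 3 only just (10.08, against 10.14).

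Bag3, a co-chaperone that links HSP70 and Hspb8 to autophagy, had 12.71, 12.05 and 10.96 log2 units at 24 h, 11.16, 9.76 and 10.32 at 48 h and 12.05, 11.26 and 12.95 at 72 h, against 10.18, 10.98 and 12.08 in controls. Its controls differed widely among themselves and overlapped every time. The difference from control was 0.83 ± 0.61 SE at 24 h (limma adjusted p = 0.683), -0.67 ± 0.61 SE at 48 h (adjusted p = 0.660) and 1.01 ± 0.61 SE at 72 h (adjusted p = 0.570). Without control replicate 1 the 24 and 72 h differences were 0.38 and 0.56, and without control replicate 3 they were 1.33 and 1.51. The 72 h arrays lay above all 48 h arrays, with a difference of 1.67 ± 0.61 SE (adjusted p = 0.746). The means of the other 8 genes were below those at 48 h, with differences from -0.03 for Hsph1 to -1.71 for Hspb1.

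**Figure D2:**
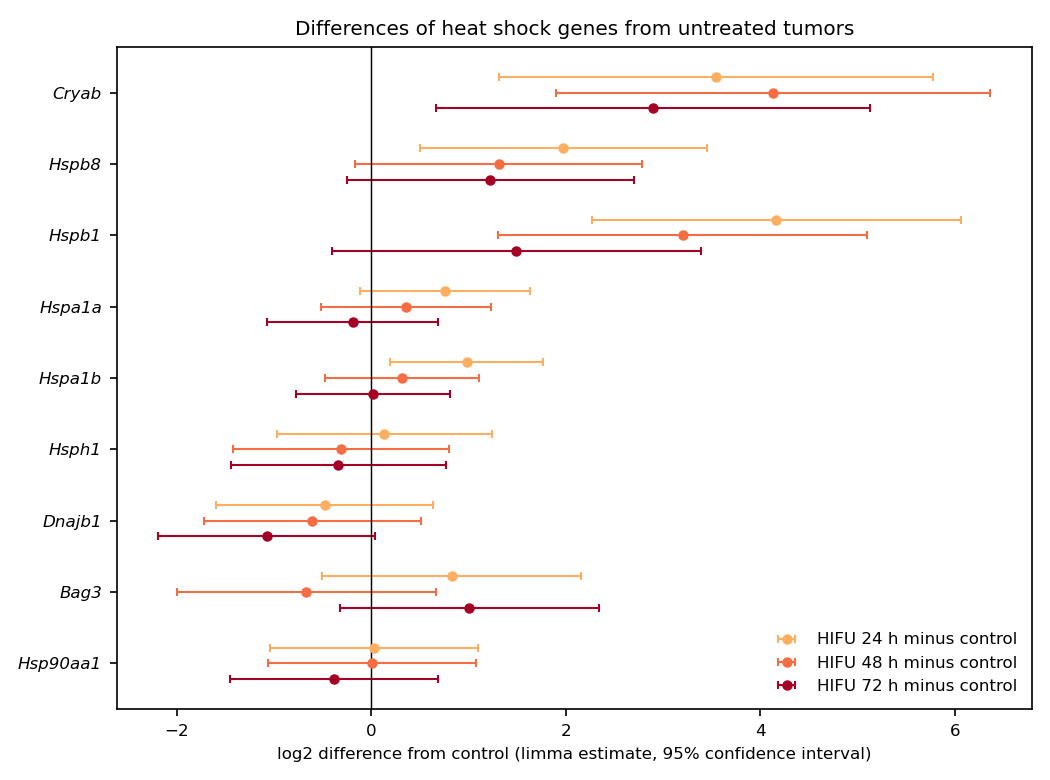
Log2 difference from control (horizontal axis) of each heat shock gene at 24, 48 and 72 h; points are limma estimates and bars 95% confidence intervals from 3 arrays per group. The intervals of Cryab lay above 0 at each time, those of Hspb1 at 24 and 48 h, and those of Hspb8 and Hspa1b at 24 h. Those of Hsp90aa1, Hsph1, Hspa1a, Dnajb1 and Bag3 held 0 at each time. None of the limma adjusted p-values passed 0.05.

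Cryab and Hspb8 were then set against the muscle level of the same tumor, beside the 7 general heat shock genes. The correlation passed for 4 of the 9 genes, Cryab, Hspb8, Hspb1 and Dnajb1; an absolute r at least that of Dnajb1, the weakest of them, was found for 17.4% of all probe sets. Over 12 arrays Cryab correlated with the muscle level with Pearson's r = 0.91 (permutation p = 1e-05, the smallest that 100000 permutations can give) and Spearman's rho = 0.96 (permutation p = 2e-05). For Hspb8 r was 0.91 (permutation p = 3e-05) and rho 0.79 (permutation p = 0.00312). An r of 0.9 or more was found for 0.941% of all probe sets. Adjusted over the 9 genes these p-values of r were 9e-05 for Cryab and 0.000135 for Hspb8, and without the 2 arrays farthest from the median muscle level r was 0.90 and 0.83. Among the 9 HIFU arrays alone r was 0.90 for Cryab (exact permutation adjusted p = 0.00355) and 0.83 for Hspb8 (exact permutation adjusted p = 0.0231), while rho for Hspb8 was 0.72 and did not pass (exact permutation adjusted p = 0.111). On deviations from the group means it was 0.85 for Cryab and 0.94 for Hspb8 (exact permutation within groups, adjusted p = 0.0104 and 0.00694). All correlations were two-sided.

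Hspb1 also correlated with the muscle level over 12 arrays (r = 0.73, permutation p = 0.00808, adjusted 0.0242; rho = 0.69, permutation p = 0.0160) and r was 0.62 without the 2 farthest arrays. Within the 9 HIFU arrays it did not pass (r = 0.55, exact permutation adjusted p = 0.238). Dnajb1 correlated negatively over 12 arrays (r = -0.66, permutation p = 0.0195, adjusted 0.0439; rho = -0.76, permutation p = 0.00641), with r = -0.65 without the 2 farthest arrays, and did not pass within the HIFU arrays (r = -0.62, exact permutation adjusted p = 0.177). Without control replicate 2 neither passed (r = 0.64 for Hspb1 and -0.66 for Dnajb1, permutation, adjusted p = 0.0900 and 0.0757), and Dnajb1 kept its call in 3 of the 12 fits that left out 1 array. For Hspa1a, Hspa1b, Hsph1, Hsp90aa1 and Bag3 r lay between -0.33 and 0.33 over 12 arrays (permutation, adjusted p between 0.384 and 0.444). Hsp90aa1 had r = -0.76 without the 2 farthest arrays. Within the 9 HIFU arrays its r was -0.74 and did not pass (exact permutation adjusted p = 0.0607). The others lay between -0.45 and 0.45 without the 2 farthest arrays, and between -0.44 and 0.39 within the HIFU arrays.

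Tumors of near-equal muscle level can be set side by side. At muscle levels of 2.02 in HIFU_24h replicate 2, 2.20 in HIFU_72h replicate 1 and 2.06 in control replicate 3, Cryab had 13.05, 13.06 and 11.86 log2 units. Hspb8 had 11.95, 11.36 and 11.84 in the same arrays. Hspb1 had 7.73, 5.68 and 5.62, so that HIFU_72h replicate 1 and the control were alike for this gene. At the upper end, HIFU_24h replicate 1 (muscle level 5.10) and HIFU_72h replicate 2 (5.44) had 16.92 and 16.41 for Cryab but 11.71 and 7.71 for Hspb1. These are single arrays and no test was made of them.

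With the muscle level as a covariate in limma, the differences from control were 0.81 ± 0.77, 1.38 ± 0.77 and 0.05 ± 0.78 SE for Cryab at 24, 48 and 72 h. For Hspb8 they were 0.03 ± 0.40, -0.65 ± 0.41 and -0.81 ± 0.41 SE. For Hspb1 they were 2.40 ± 0.93, 1.42 ± 0.93 and -0.35 ± 0.95 SE. The adjusted p was at least 0.962 for each of these. That fit leaves fewer residual degrees of freedom. Muscle level and treatment were also largely confounded in it. Every HIFU array had a muscle level of 2.02 or more, and the controls had -1.31, -0.60 and 2.06. Only control replicate 3 thus overlapped the HIFU arrays, and the fit cannot separate the 2 well.

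**Figure D3:**
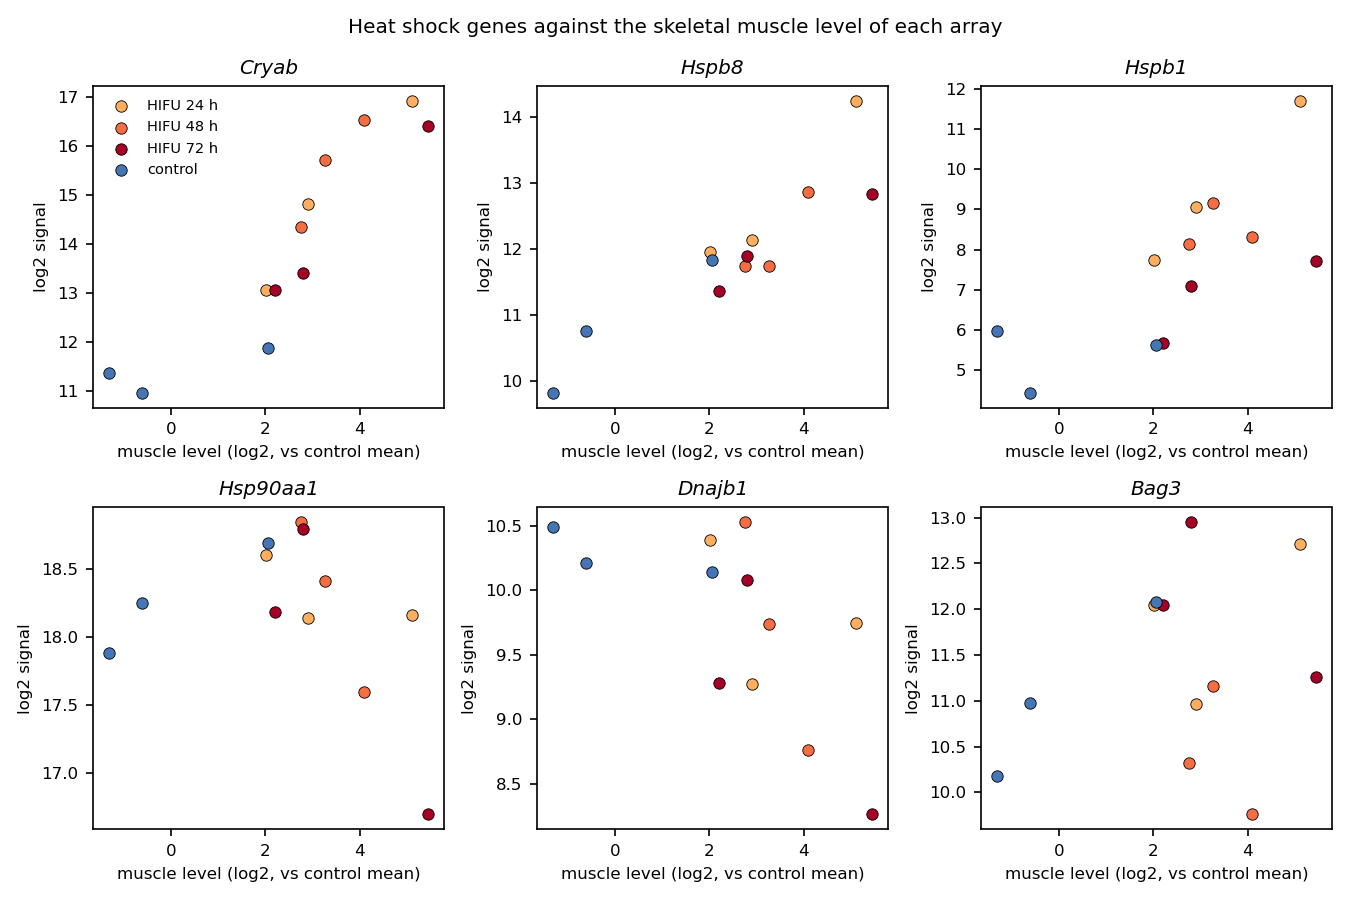
Log2 signal of 6 heat shock genes (vertical axes) against the skeletal muscle level of the same array (horizontal axis, log2, relative to the control mean); each point is 1 of 12 arrays, coloured by group. Cryab and Hspb8 ascend with the muscle level (r = 0.91 for both), and Hspb1 separates HIFU_24h replicate 1 (11.71) from HIFU_72h replicate 2 (7.71) at similar muscle levels.

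Hsp90aa1 correlated over 12 arrays with the median level of 11 neuroblastoma and adrenergic genes, with r = 0.83 (permutation p = 0.000390, adjusted 0.00351; rho = 0.88, permutation p = 0.000230) and r was 0.84 without the 2 farthest arrays. Within the 9 HIFU arrays r was 0.91 for Hsp90aa1 and 0.90 for Dnajb1 (exact permutation adjusted p = 0.00526 for both). Over 12 arrays Dnajb1 did not pass (r = 0.47, permutation p = 0.122, adjusted 0.365; rho = 0.42, permutation p = 0.177). HIFU_72h replicate 2, where both genes were lowest, had the lowest neuroblastoma level of the HIFU tumors, at -1.32. This comparison was chosen after the values were seen, and 9 genes were tested in each set of arrays. The share of all probe sets with as strong a correlation with the neuroblastoma level was not determined. Whether the correlation is particular to these genes was therefore not tested.

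Averaged over the 7 general genes, the signal minus the control mean lay between 0.49 and 1.66 in HIFU 24 h tumors, -0.19 and 0.62 at 48 h, -0.45 and 0.65 at 72 h and -0.14 and 0.19 in controls. The mean of Cryab and Hspb8 lay between 1.40 and 4.49 at 24 h, 1.94 and 3.59 at 48 h, 1.11 and 3.53 at 72 h and -0.51 and 0.75 in controls. In each of the 9 HIFU arrays the Cryab and Hspb8 mean was the higher. The median over the same 7 genes was 1.63, 0.22 and -0.12 at 24 h, 0.14, -0.67 and 0.25 at 48 h and -0.09, -0.29 and 0.52 at 72 h, against -0.01, -0.07 and 0.03 in controls. By the median the 24 h tumors thus overlapped the controls, which they did not by the mean. Of the 7 genes Hspb1 had the largest 24 h difference (4.16), and the others lay between -0.48 for Dnajb1 and 0.98 for Hspa1b. The mean at 24 h thus rested largely on Hspb1, and a mean without it was not computed.

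By likeness across the 12 arrays, the genes nearest to Cryab were Ndrg2, Slc38a4 and Prob1 (Pearson's r = 0.98, 0.97 and 0.97), and those nearest to Hspb8 were Dnm3, the muscle enolase Eno3 and the small heat shock protein Hspb6 (r = 0.96, 0.95 and 0.94). Those nearest to Hspb1 were Rrad, a small GTPase, Flnc, the filamin of muscle, and Ankrd2, a muscle ankyrin-repeat protein (r = 0.97, 0.96 and 0.96). Hsph1 was nearest to Stip1, the adaptor between HSP70 and HSP90 (r = 0.90), Hsp90aa1 to Pitrm1 (r = 0.97), Dnajb1 to Mthfd2 (r = 0.95), Bag3 to Notch1 (r = 0.90), Hspa1a to Prkg1 (r = 0.92) and Hspa1b to Fam205a3 (r = 0.94). These values describe 12 arrays with no test.

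Beyond the named set, 77 of 85 genes listed for 8 chaperone families and stress groups were measured. Of these 1 passed as higher at 24 h, 0 at 48 h, 0 at 72 h and 0 over all HIFU tumors, and 0 passed as lower (limma). An unadjusted p under 0.05 was found for 8 of the 77 at 24 h (10.4%, against 9.84% of all probe sets), 9 at 48 h (11.7%, against 13.3%), 5 at 72 h (6.49%, against 11.2%) and 12 over all HIFU tumors (15.6%, against 14.6%). The gene that passed was Hspb7, a cardiac and skeletal muscle relative of Hspb1, with 17.73 at 24 h and 11.82 in controls, a difference of 5.91 ± 0.83 SE (limma adjusted p = 0.0390). That call rested on the set of arrays fitted: it held in 3 of the 12 fits that left out 1 array (without control replicate 3, HIFU_24h replicate 2 or HIFU_72h replicate 2), over which the adjusted p lay between 0.00444 and 0.239 and the difference between 5.14 and 6.62. It was also lost with the replicate block (adjusted p = 0.185), in a fit of the 24 h and control arrays alone (adjusted p = 0.139) and with the muscle level as a covariate (3.74 ± 0.66 SE, adjusted p = 0.612). Its 48 and 72 h differences were 4.54 and 3.38. Hspb6, another member of that family, differed by 3.49 ± 0.82 SE at 24 h (limma adjusted p = 0.232). Hspb2 differed by 0.24 at 24 h, -0.39 at 48 h and -0.10 at 72 h, and Hspb9 by 0.07 at 24 h. Over the 6 measured small heat shock proteins outside the named set, the median was 0.37 at 24 h, 0.34 at 48 h and 0.17 at 72 h. Among them Hspb9, Cryaa and Hspb3 had control means of 2.44, 3.14 and 3.93, below the control array medians (5.43 to 5.45). Whether they were above background was not analysed here, so these medians rest partly on low signals. The lens crystallin Cryaa, the partner of Cryab in the eye, lay between 2.61 and 4.46 in HIFU tumors and between 3.05 and 3.18 in controls.

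Among J-domain genes, medians were 0.04 at 24 h, -0.12 at 48 h and 0.10 at 72 h over 13 measured members. Dnaja4 differed by 1.49, 1.58 and 0.99 at the 3 times, Dnajb4 by 1.55, 0.89 and 0.93, and Dnajb2 by 0.84, 0.30 and 0.54 (limma adjusted p between 0.327 and 0.709). Of HSP90 co-chaperones, Fkbp5, an immunophilin that is a glucocorticoid receptor target, differed by 1.18, 0.75 and 0.45, and Unc45b, the myosin chaperone of striated muscle, by 0.88, 1.68 and 1.45. Trap1, the mitochondrial HSP90, differed by -0.40, -0.54 and -0.66. The adjusted p of these 3 genes lay between 0.330 and 0.718. The control mean of Unc45b, 3.66, was below the control array medians (5.43 to 5.45).

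Sqstm1, the autophagy receptor p62, differed by 1.37, 1.09 and 0.55, and Bag1, an exchange factor of HSP70, by 0.80, 1.10 and 0.58 (limma adjusted p between 0.309 and 0.734). In the list of 8 measured BAG, exchange and degradation co-chaperones that holds both, 5, 5 and 6 means were below control at the 3 times, with medians of -0.265, -0.21 and -0.11. Bag6, a chaperone of tail-anchored membrane proteins, differed by -0.48, -0.86 and -0.04 (adjusted p = 0.641, 0.293 and 0.979). Its 48 h arrays lay below all controls, as held for 11.7% of all probe sets. The 9 measured chaperonins had lower means in HIFU tumors at 24 h and at 72 h, 9 of 9 each, with medians of -0.54 and -0.53, and 7 of 9 at 48 h (median -0.29), and 0 passed. Tcp1, a subunit of the cytosolic chaperonin, differed by -0.54, -0.53 and -0.66 (adjusted p between 0.483 and 0.619). Of 4 listed heat shock factor genes 3 were measured, namely Hsbp1, Hsf2 and Hsf4, so no value of Hsf1 itself is given here. Hsbp1, a small protein that binds HSF1, differed by -0.81, -1.03 and -0.67 (adjusted p = 0.565, 0.328 and 0.580). Its 48 and 72 h arrays lay below all controls, as held for 11.7% and 10.1% of all probe sets. Of the 77 genes, 10 and 7 lay below all controls at 48 and 72 h. At the same times 9 and 7 of them lay above, against 10.3% and 8.99% of all probe sets. The heat shock factors Hsf2 and Hsf4 differed by -0.17 and 0.05 at 24 h, 0.54 and 0.42 at 48 h and -0.17 and 0.0033 at 72 h. The 17 measured endoplasmic reticulum stress genes had medians of -0.07, 0.02 and -0.18. Hspa13, an HSP70 relative of the microsomes, had 10.14 to 10.90 in all HIFU tumors and 11 to 11.26 in controls (F test adjusted p = 0.493). All its HIFU arrays thus lay below all controls, as held for 1.65% of all probe sets. It was the 1 gene of the 77 to do so, whereas 4 lay above all controls (Hspa1l, Dnajb2, Hspb6 and Hspb7), against 1.76% of all probe sets. Hspa1l had low signals, 3.11 to 4.36 in HIFU tumors and 3.03 to 3.08 in controls.

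**Figure D4:**
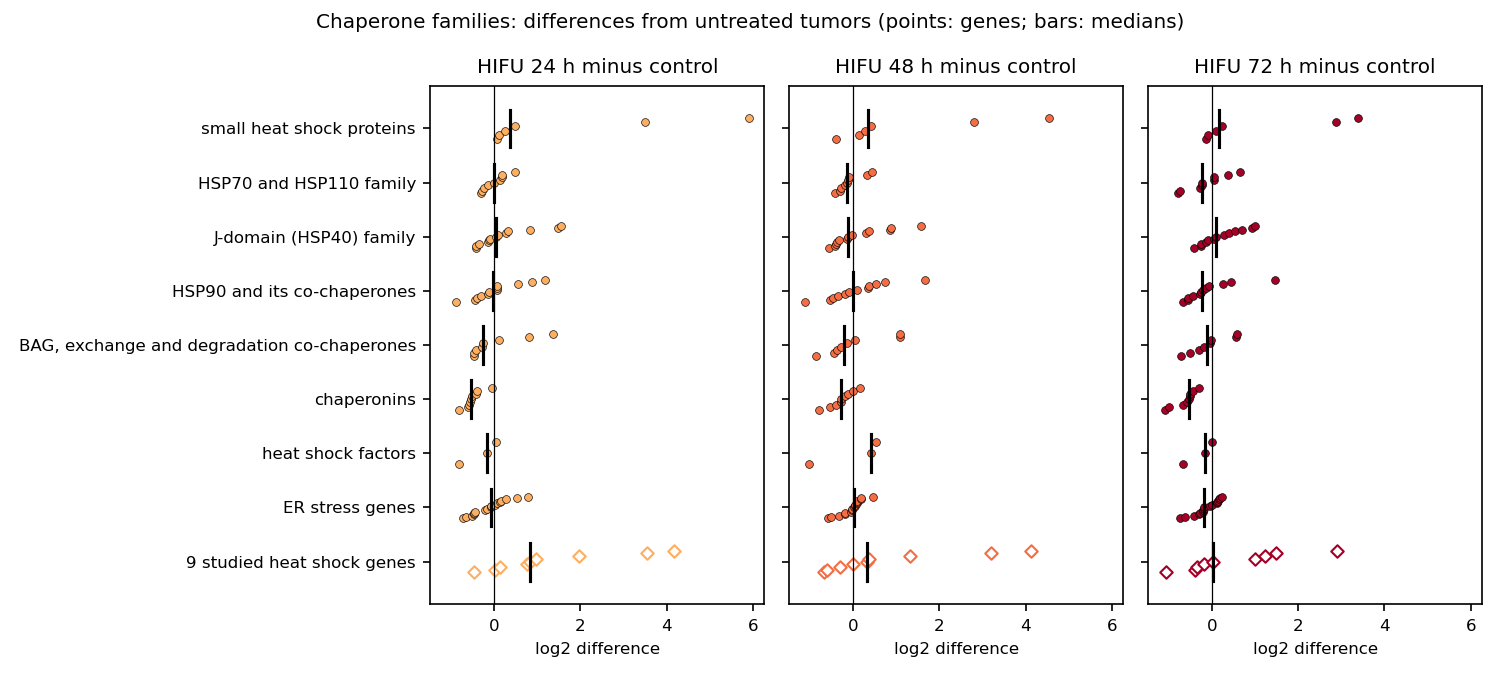
Log2 difference from control (horizontal axes) at 24, 48 and 72 h for the measured genes of 8 chaperone families and stress groups and, at the bottom, for the 9 heat shock genes (open diamonds); points are genes and bars are medians. Hspb7 and Hspb6 stand to the right among small heat shock proteins (5.91 and 3.49 at 24 h), and the chaperonin median was -0.54 at 24 h.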

How the data were processed

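The authors deposited log2 signals for 22206 probe sets of Affymetrix Mouse Clariom S arrays, 1 array for each of 12 tumors; the scale was read from the values (1.75 to 19.93). Transcriptome Analysis Console 4.0 is named per the submitters' processing notes. The summarization, background correction and genome build were not stated in any label or header. Array medians were 5.43 to 5.68, and no further scaling was applied. Arrays give no read depth, and 3 per group limit the precision.

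Symbols came from the platform annotation and the RefSeq GRCm38.p6 table (19572 probe sets with 1 symbol, 2634 with none). Group means over all 12 arrays were fitted with limma 3.58.1 in R 4.3.3 (prior degrees of freedom 3.37), a step tested on simulated data. Tests were two-sided, adjusted by Benjamini-Hochberg over all probe sets. Correlations used 100000 permutations over 12 arrays and all permutations over 9. Figures used Python 3.11.15. The alternatives were other scalings, a filter on low values, other variance models, array weights, a muscle covariate, a replicate block and leaving out arrays.

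The members and lists were chosen with earlier results of these data known. Besides the members, the text names up to 4 genes per list, those with the lowest F test p. It also names the 3 genes nearest to each member by r. Chgb, Ddc and Mycn were chosen after their values were seen, and Hspb3 was named for its low signal. Same-numbered arrays had a median correlation of -0.13 between their deviations from group means (lowest -0.61), so numbers were not taken as pairs.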

Additional observations from a re-analysis of the deposited data

Results flagged for a closer look

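Hspa1a, the stress-inducible HSP70, differed from the control mean in opposite directions at 72 h and at 48 h, in every array of each time. At 72 h its signals were 6.43, 6.23 and 6.34 log2 units, and at 48 h 7.23, 6.73 and 6.69, against a control mean of 6.52. The difference between the times was -0.55 ± 0.40 SE (limma adjusted p = 0.868), so it did not pass the test of the difference itself. Its controls spanned 6.26 to 6.88, which overlaps both times.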

How the results depend on the processing

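The count of the 9 genes past the threshold was 0 at each time, over all HIFU tumors, by the F test and between times, and it stayed at 0 with the replicate block, which changed no call of the 9 genes (that of Hspb7 at 24 h was lost), under quantile normalization, median centring, the filter on low values, the intensity trend, the mean of probe sets, the muscle covariate and when any 1 array was left out. With array weights limma gave 4 genes at 24 h (Hspa1b, Hspb1, Cryab, Hspb8), 2 at 48 h (Hspb1, Cryab) and 2 at 72 h (Bag3, Cryab). It gave 3 over all HIFU tumors (Hspb1, Cryab, Hspb8) and 4 by the F test. In that setting 1118, 944 and 1846 of all 22206 probe sets passed at 24, 48 and 72 h (5.03%, 4.25% and 8.31%). Over all HIFU tumors 3787 did (17.1%), and the share that passed the weighted F test was not determined. Control replicate 2 had a weight of 4.19 and HIFU_72h replicate 2 one of 0.306. Without both control replicate 3 and HIFU_72h replicate 2, a choice made after seeing the data, 1 gene passed at 48 h (Cryab), as did 645 of all probe sets (2.9%). The muscle correlation passed for 4 genes, for 2 (Cryab, Hspb8) in the 9 HIFU arrays and for 2 on deviations from group means, and for 2 to 4 when 1 array was left out, with 2 without control replicate 2.

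None of the differences that changed sign had passed the test, and the cause was not tested. Quantile normalization gave -0.105 for Hspa1b at 72 h. Median centring, which moved the median of all probe sets at 72 h to -0.20, gave -0.12 for Hspa1b at 72 h and -0.037 and -0.053 for Hsp90aa1 at 24 and 48 h. Array weights gave 0.16 for Hsph1 and 0.23 for Hsp90aa1 at 72 h, and 0.018 and 0.15 over all HIFU tumors. The muscle covariate gave, for Dnajb1, 0.41 at 24 h, 0.29 at 48 h and 0.18 over all HIFU tumors; for Hsph1, 0.19 at 48 h, 0.19 at 72 h and 0.34 over all; for Hspb8, -0.65 at 48 h, -0.81 at 72 h and -0.48 over all. It gave 0.25 at 72 h and 0.50 over all for Hsp90aa1, -0.18 for Hspa1b and -0.35 for Hspb1 at 72 h, and -0.0095 for Hspa1a and -0.032 for Bag3 over all. Without both control replicate 3 and HIFU_72h replicate 2, Hsph1 and Hsp90aa1 had 0.29 and 0.42 at 72 h, 0.051 and 0.29 over all HIFU tumors, and muscle correlations of 0.050 and 0.067. Other values moved in that setting but kept their sign. Hspa1b had 0.16 at 72 h, against 0.02 with all arrays, and Bag3 1.03 over all HIFU tumors, against 0.39. The muscle correlation of Hspa1a was 0.51, against 0.30. In the 9 HIFU arrays Bag3 had r = -0.080 with the muscle level.

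Leaving out 1 array gave -0.11 to 0.42 for Hsph1 at 24 h, -0.85 to 0.28 at 72 h and -0.34 to 0.036 over all HIFU tumors. For Hsp90aa1 it gave -0.17 to 0.23 at 24 h, -0.27 to 0.35 at 48 h, -0.83 to 0.21 at 72 h and -0.31 to 0.093 over all. It gave -0.07 to 0.16 for Hspa1b at 72 h and -0.061 to 0.89 for Bag3 over all, and muscle correlations of -0.55 to 0.050 for Hsp90aa1, -0.091 to 0.50 for Hspa1a and -0.53 to 0.049 for Hsph1. A fit of only the groups compared gives no value over all HIFU tumors or for the F test. With 3 arrays per group, the unadjusted 95% intervals of Hsp90aa1 and Hsph1 at 24 h held changes of about 1 log2 unit either way. That is not the limit of the adjusted test, which 4.16 ± 0.86 SE for Hspb1 at 24 h did not pass.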
